A study of Mus musculus with 51 samples.

Results

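Microglia were held on magnetic beads against CD11b from the prefrontal cortex of 8 control mice, and their RNA was compared with that of the total homogenate of the same cortex. These 16 of the 51 libraries of the series, 8 labelled C_CD and 8 labelled C_TH, are joined in pairs by the mouse number that ends each title. The mice were adult male C57BL/6J of the control (Air) group, which breathed air without ethanol in the inhalation chambers for 16 h each day through 4 weekly cycles. They received saline with pyrazole (1 mmol/kg), an inhibitor of alcohol dehydrogenase that the ethanol-exposed mice received too. The homogenate was 5% of the minced cell suspension, set aside before enzymatic dissociation. The rest was dissociated, spun on 25% Percoll to remove debris and myelin, and passed over ACSA2 beads to take astrocytes, and CD11b beads were then applied to what was left. The 2 groups thus differ in their cells and also in the handling between tissue and lysis, and these cannot be told apart in this comparison. CD11b is shared by microglia, macrophages, monocytes, neutrophils and natural killer cells, so the beads by themselves do not separate these cells.

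Microglia are the resident macrophages of brain tissue. They survive on signals through the CSF1 receptor, keep their identity through TGF-beta signaling and transcription factors such as PU.1 and SALL1, sense ATP and fractalkine from neurons, and clear debris through phagocytic receptors and lysosomes. They are a small share of cortical cells, so tissue RNA is mostly that of neurons, astrocytes and oligodendrocytes. In bulk samples fewer cells of a type and less RNA per cell cannot be told apart, which holds for every level given here.

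Short stretches of promoters are shown for 5 genes of the microglial marker list and the immunoreceptor list whose windows hold the letters GAGGAAGT, a form of the site that PU.1 (the product of Spi1) and related ETS factors can bind. Capitals mark these letters or their reverse complement. All are RefSeq sequences of build GRCm38.p6, written along the strand of the gene, from windows of 250 bases before to 50 bases after an annotated start.
C1qc, a chain of complement C1q (chr4:136893076-136893135, minus strand): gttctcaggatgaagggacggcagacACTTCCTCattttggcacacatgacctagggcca
Ctss, the lysosomal protease cathepsin S (chr3:95526758-95526817, plus strand): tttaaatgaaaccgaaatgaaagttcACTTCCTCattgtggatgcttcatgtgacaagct
Inpp5d, the phosphatase SHIP1 (chr1:87620266-87620325, plus strand): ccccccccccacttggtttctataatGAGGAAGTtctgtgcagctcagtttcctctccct
Fcgr4, an activating IgG receptor (chr1:171018876-171018935, plus strand): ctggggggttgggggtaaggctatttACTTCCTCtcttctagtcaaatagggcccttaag
Vav1, a guanine nucleotide exchange factor of blood cells (chr17:57279063-57279122, plus strand): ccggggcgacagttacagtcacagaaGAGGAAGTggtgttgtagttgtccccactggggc
The log2 fold changes over homogenate were 5.24 for C1qc, 5.20 for Ctss, 5.63 for Inpp5d, 5.36 for Fcgr4 and 5.83 for Vav1. All 26 tested genes of the marker list and all 16 of the immunoreceptor list were higher, with or without the letters. That these 5 were higher thus says nothing about the letters. The letters occur in either orientation in 5.38% of the 2768 promoter windows of genes that were higher by more than 2-fold, in 1.79% of the 3851 windows of genes lower by more than 2-fold, in 2.86% of the 13725 windows of all tested genes and in 3.2% of all 32851 windows in the table. The AP-1 letters TGANTCA, read on both strands, occur in 6.36%, 5.12%, 5.0% and 7.81% of the same windows, so the higher genes lie above all tested genes and below the whole table. Neither share was tested, a match of letters is not a bound site, and most promoters of higher genes hold neither. GAGGAAGT occurred in only 2 of 22 windows of the microglial marker list. It occurred in 0 of 24 windows of a list of myeloid transcription factors, most of which were higher as well.

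The label of the preparation was checked with Csf1r, the receptor for CSF1 and IL-34, and P2ry12, the ADP receptor that draws microglial processes to injury (chr3:59216271-59262985, GRCm38.p6). Csf1r stood at 7227 to 11883 CPM (counts relative to the TMM-scaled library total) in the 8 microglia preparations, with a median of 8363, and at 153 to 245 CPM in the 8 homogenates, with a median of 197. P2ry12 stood at 1463 to 2540 CPM (median 1884) in the preparations and at 34.2 to 51.7 CPM (median 43.3) in the homogenates. Every preparation was far above every homogenate for both genes. The log2 fold change was 5.49 (standard error 0.17, edgeR adjusted p = 1.33e-13) for Csf1r and 5.46 (standard error 0.17, edgeR adjusted p = 1.27e-13) for P2ry12, that is 44.9-fold and 44.0-fold between the means. Itgam, which encodes CD11b itself, was at 1689 ± 313 CPM (SD, n = 8, as for every ± below) in the preparations and 42.4 ± 7.43 in the homogenates, with a log2 fold change of 5.31.

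**Figure D1:**
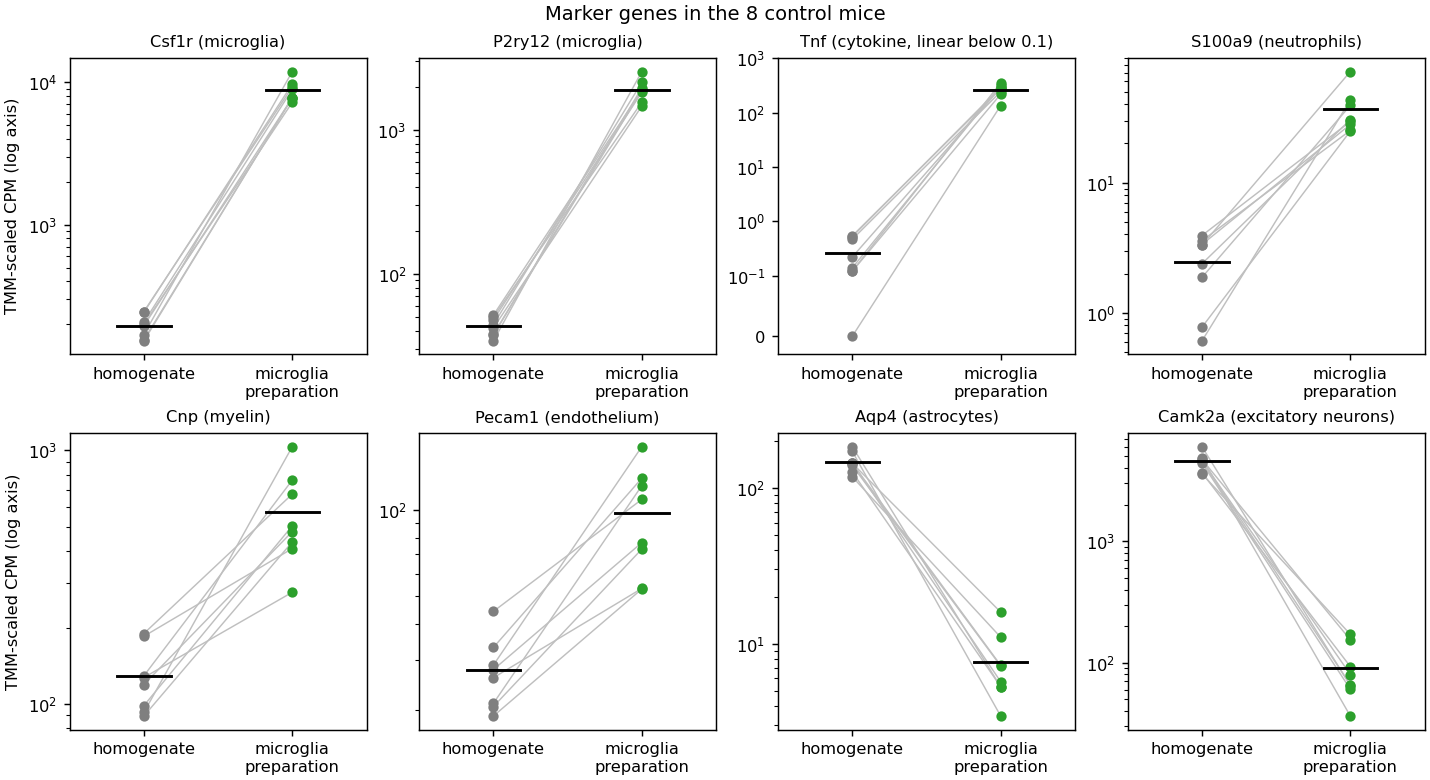
TMM-scaled CPM of 8 marker genes in the homogenate (gray) and the microglia preparation (green) of the 8 control mice, on log axes (for Tnf linear below 0.1), with a line joining the 2 libraries of a mouse and a black bar at the mean. Csf1r, P2ry12, Tnf and S100a9 are higher in every preparation than in any homogenate, Cnp and Pecam1 are higher by less, and Aqp4 and Camk2a are lower in every preparation.

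The preparations held 1025527 to 6026453 counts on genes and the homogenates 5247210 to 15594154, so a gene at 1 CPM rests on few counts in the preparations. Reads that mapped to several places made up 12.6% to 40.6% in the preparations and 8.82% to 16.9% in the homogenates. The preparations of mice 03, 05 and 19 stood apart in Rn45s, a ribosomal RNA precursor (91154 to 168958 CPM, against 5716 to 8174 in the other 5 preparations and 1474 to 7413 in the homogenates). Without these 3 mice, a choice made after the data were seen, 10928 genes were called in place of 11052.

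Of 13393 genes tested, 11052 (82.5%) differed between the preparation and the homogenate at an edgeR adjusted p under 0.05, with 5237 (39.1%) higher and 5815 (43.4%) lower in the preparation. In a test against a minimum of 2-fold, 6438 genes (48.1%) differed, of which 2678 (20%) were higher and 3760 (28.1%) lower. The 8 preparations lay above all 8 homogenates for 3568 genes (26.6%) and below them for 4554 (34%). The median log2 fold change of all tested genes was -0.08. Since most genes passed, a count of members called says little unless it is set beside these shares, and the size of the change is given throughout. The remaining 11028 of the 24421 genes in the files had too few counts to test.

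Markers of microglia rose as a block. Each of the 26 was higher by more than 2-fold (20% of all tested genes were) with no overlap between the groups (26.6% of all tested genes), and the log2 fold changes ran from 3.75 for Mertk, a receptor for apoptotic cells, to 6.63 for Il10ra, a chain of the interleukin-10 receptor, with a median of 5.31. Il10ra was at 1013 to 1423 CPM (median 1206) in the preparations and at 7.72 to 16.8 (median 12.8) in the homogenates. Siglech, a sialic acid receptor of microglia, was at 757 to 881 CPM (median 795) and at 14.6 to 24.1 (median 18.9). The preparations stood close together and well above every homogenate, and the log2 fold change was 5.41 (standard error 0.13, edgeR adjusted p = 1.77e-14). Cx3cr1, the receptor for neuronal fractalkine, was at 4294 ± 684 CPM against 92.1 ± 12.4 (log2 fold change 5.54). Aif1, the actin-bundling protein IBA1 used to stain microglia, was at 139 ± 29.7 against 6.44 ± 1.09 (log2 fold change 4.41). Summed over the 26 genes, the CPM of a preparation was 3255% to 5754% of that in the homogenate of the same mouse. In the ethanol-exposed mice of the series, which share no library with these, the median of the 26 genes was 4.93.

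**Figure D2:**
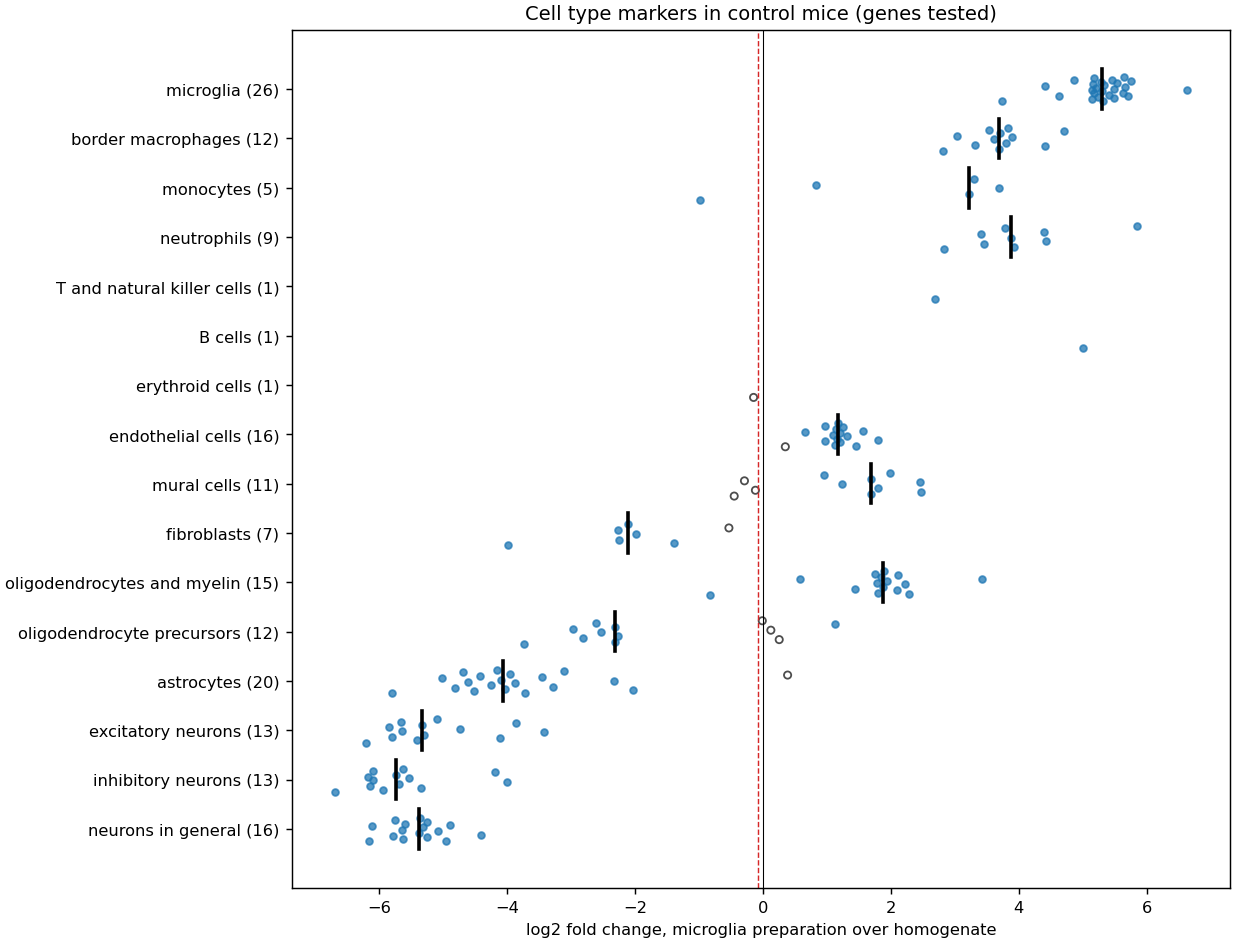
Log2 fold change of the microglia preparation over homogenate for each tested marker gene of 16 cell types (number of genes tested in brackets), with filled points for genes called at an adjusted p under 0.05, open points for the others, black bars at list medians and the red dashed line at the median of all tested genes. Microglial markers cluster near their median of 5.31, myelin, endothelial and mural markers lie mostly between 0 and 3.43, and neuronal markers lie at or below -3.42.

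Transcription factors of the myeloid lineage rose with the markers. Of 20, 19 were higher by more than 2-fold (20% of all tested genes were), at a median log2 fold change of 4.55. Runx1, a factor of blood cell development, was at 153 to 245 CPM (median 173) in the preparations and at 2.19 to 3.82 (median 2.63) in the homogenates. These groups lay 6.08 log2 units apart (standard error 0.12, edgeR adjusted p = 1.17e-14). Ikzf1, Irf8, Cebpa, Irf5 and Spi1, which specify or maintain macrophages, had log2 fold changes of 6.14, 6.11, 5.85, 5.87 and 5.81. Sall1, a factor that separates microglia from other macrophages, had 4.62. Mef2c was the exception, at 436 CPM in the preparations and 507 in the homogenates (log2 fold change -0.19, standard error 0.14, edgeR adjusted p = 0.22), and it is also a factor of cortical neurons. It was called lower with library size as the only scaling and among genes with no 0 count.

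Bead antigens and integrins formed a list of their own, and only their RNA was measured, not surface protein. Of 12 tested genes 11 were higher and 1 was lower (39.1% and 43.4% of all tested genes were). The count of higher genes was 10 with RLE or library size scaling, in DESeq2 and without any one of mice 03, 05, 20, 22, 36 and 37. Itgb2, the beta chain that pairs with CD11b, was at 521 ± 45.0 CPM against 12.1 ± 2.51 (log2 fold change 5.45), and Itgb5, a beta chain that pairs with the alpha V chain, was at 2143 ± 274 against 79.1 ± 5.44 (log2 fold change 4.75). The alpha V chain Itgav itself differed by only 0.84. Atp1b2 encodes the antigen of the ACSA2 beads that had been used to take astrocytes out first. It was at 29.5 to 103 CPM (median 53.8) in the preparations and at 403 to 620 (median 472) in the homogenates. Every preparation was lower, and its log2 fold change was -3.10 (standard error 0.21).

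Receptors of microglia for signals of other cells were higher in 9 of 10 cases, while their ligands were split. The complement receptors C3ar1 and C5ar1 led with log2 fold changes of 6.71 and 6.59, and Tgfbr1 and Tgfbr2, the TGF-beta receptors, followed at 5.33 and 4.46. Axl, a receptor for apoptotic cells related to Mertk, was lower (-0.70, standard error 0.14). Among 11 ligands and ligand partners 6 were higher, 4 were lower and Cd47 was not called (0.02). Of all tested genes 39.1% were higher and 43.4% lower. Tgfb1 and Nrros, the TGF-beta ligand and the protein that anchors it on microglia, were higher by 5.32 and 4.95 log2 units. Cx3cl1, the fractalkine made by neurons, was at 15.0 to 51.0 CPM (median 23.3) in the preparations and at 654 to 985 (median 866) in the homogenates. Here every homogenate was higher, and the log2 fold change was -4.93 (standard error 0.23, edgeR adjusted p = 1.44e-11). Il34 and Cd200, neuronal ligands of CSF1R and of the CD200 receptor, had -2.98 and -2.60. The other ligand of CSF1R, Csf1, was higher in the preparation (2.55).

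Phagocytic and immunoreceptor signaling genes rose by similar amounts. All 16 tested genes of the TREM2 and Fc receptor pathway were higher by more than 2-fold (20% of all tested genes were). Their log2 fold changes spanned only 4.71 to 5.87 around a median of 5.35, the whole list within the span of the microglial markers. Trem2, its adaptor Tyrobp and the kinase Syk had 5.15, 4.83 and 5.87. Syk was at 335 to 562 CPM (median 476) in the preparations and at 5.74 to 9.85 (median 7.96) in the homogenates. Actin regulators of blood cells were spread more widely, and 17 of 17 were higher by more than 2-fold at a median of 5.25, led by Dock2, an activator of Rac (5.76), and Fermt3, the integrin activator kindlin-3 (5.68). Fcgr genes and other families with near-identical copies share reads that were not counted, so their absolute levels are uncertain.

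Purinergic receptors and enzymes of ATP breakdown did not move together. Of 13 tested genes 9 were higher, 3 were lower and P2ry1 was not called (39.1% of all tested genes were higher and 43.4% lower). P2ry13 and P2ry6, which sense ADP and UDP, had log2 fold changes of 5.75 and 5.42, the ATP-gated channel P2rx7 had 4.30 and the ectonucleotidase Entpd1 (CD39), which breaks down ATP, had 5.24. The adenosine receptor Adora3 was higher by 5.75 and Adora2a by 1.09, whereas Adora1 and Adora2b were lower, with -3.24 and -2.76. Nt5e (CD73), the next step after CD39 in making adenosine, was at 0 to 3.18 CPM (median 0.960) in the preparations and at 2.98 to 5.74 (median 4.65) in the homogenates. These ranges overlapped in part although the preparation was lower in 8 of 8 mice, and the log2 fold change was -1.82 (standard error 0.35, edgeR adjusted p = 0.000189).

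Toll-like receptors and their adaptors were higher in 18 of 18 tests, all by more than 2-fold (20% of all tested genes were). Their median log2 fold change was 5.26. Tlr2, which senses bacterial lipopeptides, differed most (7.29) and Tlr3, which senses double-stranded RNA, least (2.30). Against the astrocyte preparation of the same mice Tlr3 was lower (-0.59, standard error 0.12, edgeR adjusted p = 0.000482). Unc93b1, the chaperone that carries the endosomal receptors, had 5.47, and the adaptors Myd88 and Ticam2 had 4.60 and 5.70.

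Complement genes were split between the chains of C1q, which rose together, and 4 genes that were lower. C1qa, C1qb and C1qc, the 3 chains of C1q, were at 2002, 2090 and 2034 CPM in the preparations and at 55.1, 57.1 and 54.1 in the homogenates. Their log2 fold changes were 5.18, 5.18 and 5.24, which lie within 1 standard error (0.16) of each other. C3, the component on which all complement pathways converge, was higher by 3.29. Serping1, the C1 inhibitor, was lower (-1.87, standard error 0.38), as were Cd55, C4b and Cfp, whose log2 fold changes were -1.23, -0.78 and -0.70. Over the 17 tested genes 11 were higher, 4 were lower and C1ra and Cd59a were not called. Of all tested genes 39.1% were higher and 43.4% lower.

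Lysosomal genes were higher in 26 of 26 tests (39.1% of all tested genes were). They rose by less than the markers, at a median of 3.36. Ctsd (cathepsin D) was at 5474 to 8525 CPM (median 6377) in the preparations and at 288 to 431 (median 392) in the homogenates. Per kilobase of exon its level in the preparations was 2805 CPM, and its log2 fold change was 4.16 (standard error 0.15). Cathepsins S and C and Cd68, enzymes and a membrane protein of phagocytes, had log2 fold changes between 4.84 and 5.20. Lamp1 and Neu1, which cells of all kinds use, had 1.77 and 1.08.

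Channels and transporters of microglia were higher in 15 of 17 tests (39.1% of all tested genes were). The proton channel Hvcn1 was at 272 to 311 CPM (median 293) in the preparations and at 4.44 to 7.14 (median 5.84) in the homogenates, and the preparations lay within a narrow range. It was higher by 5.69 log2 units (standard error 0.13). Slco2b1, an organic anion transporter, Slc7a7, an amino acid transporter, and Slc15a3, a lysosomal peptide transporter, had log2 fold changes of 5.61, 5.59 and 6.81. The potassium channels Kcna3 and Kcnj10, the latter an astrocyte channel, were lower, with -2.06 and -1.81.

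**Figure D3:**
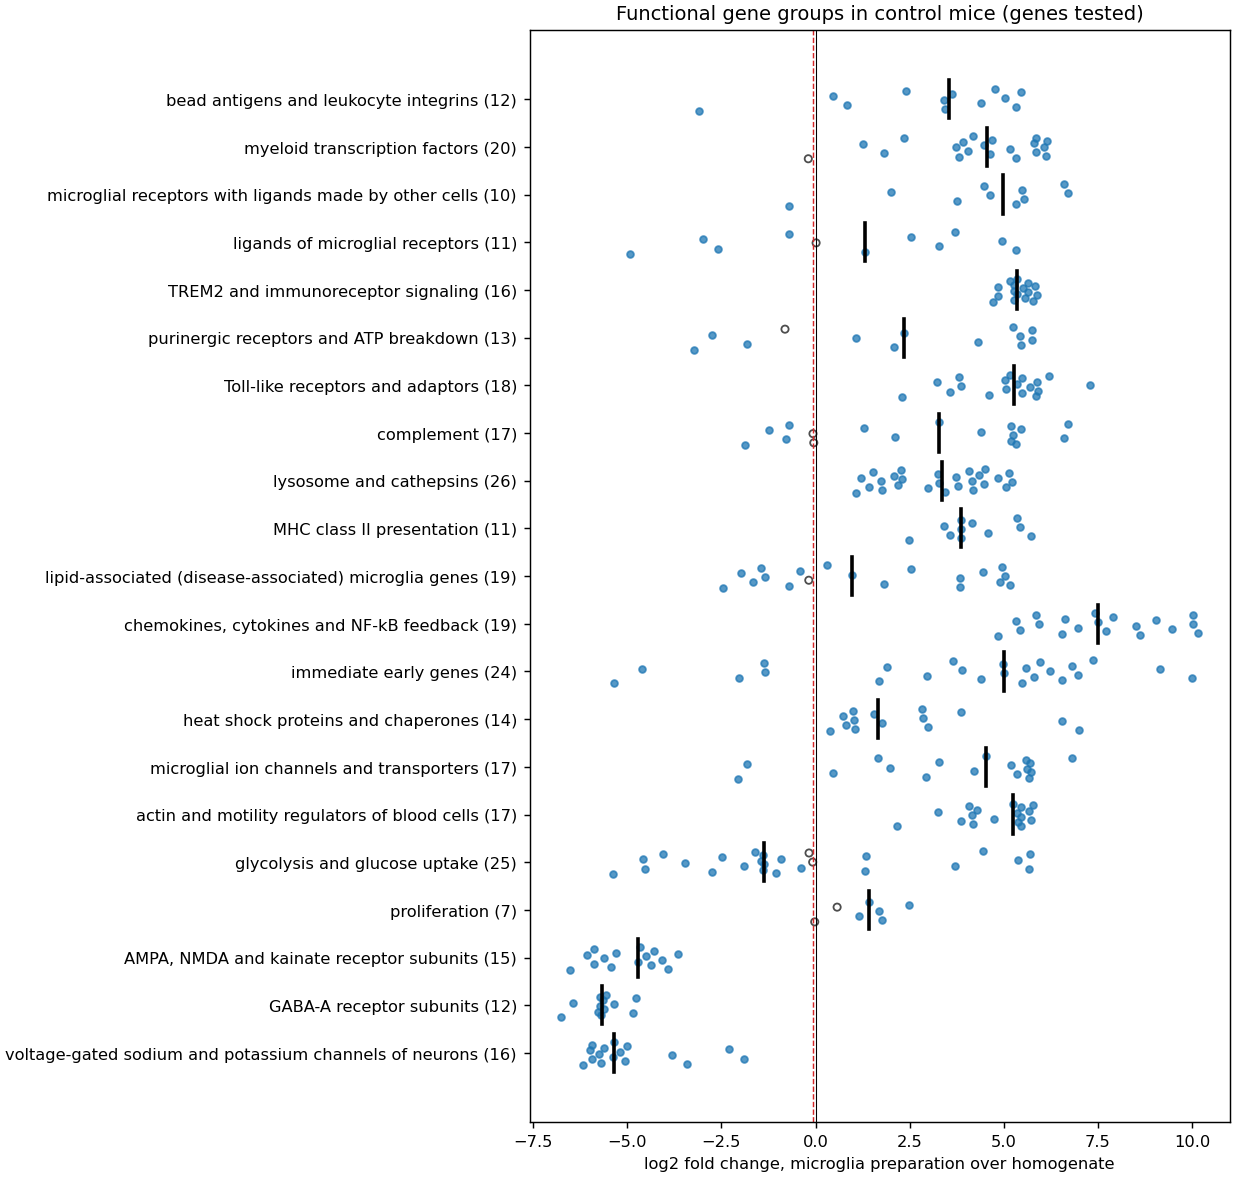
Log2 fold change of the microglia preparation over homogenate for each tested gene of 21 functional groups (number of genes tested in brackets), with filled points for genes called at an adjusted p under 0.05, open points for the others, black bars at list medians and the red dashed line at the median of all tested genes. Chemokines, cytokines and NF-kB feedback genes reach above 10, TREM2 genes lie between 4.71 and 5.87, actin genes reach 5.76 with some well below, and subunits of neuronal receptors and channels all lie below -1.

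Most cytokines and chemokines tested changed more than any marker of microglia. All 19 tested chemokines, cytokines and NF-kB feedback genes were higher by more than 2-fold (20% of all tested genes were). The median log2 fold change was 7.50, and 12 of the 19 lay above Il10ra, the highest of the markers. Tnf was at 134 to 351 CPM (median 280.5) in the preparations and at 0 to 0.541 (median 0.181) in the homogenates, where all 8 libraries together held 19 counts. No preparation came near any homogenate, and the log2 fold change was 10.03 (standard error 0.24, edgeR adjusted p = 1.41e-14). Ccl3 and Ccl4, chemokines that attract leukocytes, were at 340 ± 88.4 and 289 ± 61.3 CPM in the preparations against 0.279 ± 0.209 and 0.291 ± 0.186 (log2 fold changes 10.15 and 10.01). Their annotated spans overlap on chromosome 11, so reads in the shared stretch may have been counted for neither. Il1a and Il1b, the interleukin-1 cytokines, had 9.45 and 8.62. Il1a rose from 0.885 to 1.75 CPM (median 1.29) in the homogenates to 536 to 1110 (median 1014) in the preparations. The feedback inhibitors Tnfaip3, Nfkbiz, Nfkbia and Socs3 had 7.43, 7.50, 5.85 and 6.97.

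Immediate early genes, which cells switch on within minutes of a stimulus, moved in both directions. Of 24 tested genes 19 were higher and 5 lower (39.1% and 43.4% of all tested genes were), at a median of 5.00. All 19 were higher by more than 2-fold. Atf3, a stress-induced transcription factor, was at 1900 to 3804 CPM (median 2990) in the preparations and at 1.22 to 3.76 (median 3.39) in the homogenates. The groups lay 10.00 log2 units apart (standard error 0.25, edgeR adjusted p = 1.78e-14). Zfp36, a protein that destabilizes cytokine mRNA, was at 3453 ± 1028 against 6.00 ± 1.19 (log2 fold change 9.14), and Jun at 7326 ± 1650 against 57.0 ± 6.65 (6.98). Fos and Fosb had 6.80 and 7.36, Egr1 had 3.89. The members that were lower are Npas4, Arc, Egr3, Nr4a3 and Nr4a2, at -5.36, -4.61, -2.03, -1.36 and -1.33. Npas4 and Arc are activity-regulated genes of neurons. Arc was at 11.1 to 20.0 CPM (median 14.8) in the preparations and at 209 to 522 (median 378.5) in the homogenates. Heat shock genes were higher in 14 of 14 tests, from Hsf1 (0.39) to Hspa1a and Hspa1b (6.98 and 6.55), a near-identical pair whose reads can be shared.

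Across all tested genes, 47 had a larger log2 fold change than Il10ra. Of these 18 belong to the lists of cytokines, early genes and heat shock proteins. Others, named after their values were seen, were the interleukin-6 family cytokine Osm (8.39), the inflammasome sensor Nlrp3 (8.34), the stress cytokine Gdf15 (8.26), the RNase Zc3h12a (7.56), the eIF2-alpha phosphatase subunit Ppp1r15a (6.67) and Rgs1 (9.38), a regulator of G protein signaling. Nlrp3 was at 664 ± 174 CPM in the preparations and 2.003 ± 0.732 in the homogenates. Fam71a was at 2.42 to 61.1 CPM (median 17.3) in the preparations and had no count in any homogenate. Against a floor of 3 counts over the 8 homogenates it was at least 397-fold higher. It lies 5478 bases from Atf3 on the same strand of chromosome 1 (chr1:191162584-191164817 and chr1:191170296-191183333, GRCm38.p6).

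Mir142 was the only microRNA gene among the 12 largest rises. Its locus is chr11:87756864-87756927 (GRCm38.p6, plus strand), and the 2 mature sequences in RefSeq are shown with the seed, bases 2 to 8, in capitals because the seed decides which transcripts a microRNA pairs with.
mmu-miR-142a-5p: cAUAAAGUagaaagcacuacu
mmu-miR-142a-3p: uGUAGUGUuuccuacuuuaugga
miR-142 is known as a microRNA of blood cells, and the seeds of its arms differ. Poly(A) libraries hold the longer transcript across the hairpin and not these mature forms. The locus had 268 counts in the 8 preparations, at 5.00 to 38.2 CPM (median 15.1), and 2 counts in the 8 homogenates. That is a ratio of 598, with a 95% exact interval from 164 to 4965 that covers counting error only.

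The astrocyte preparations of the same mice went through the same dissociation and Percoll step, so a second comparison set the microglia preparations against them. Both comparisons use the same 8 microglia libraries. Over all genes 8745 of 12057 (72.5%) differed, 4225 (35%) higher and 4520 (37.5%) lower, and 3802 (31.5%) by more than 2-fold, 1590 (13.2%) higher and 2212 (18.3%) lower. The 26 microglial markers were higher by a median of 3.06 log2 units, against 5.31 over homogenate. The 19 cytokine and NF-kB genes were higher by 2.93, against 7.50 over homogenate. The astrocyte preparations thus held RNA of microglial markers too, and which cells their cytokine RNA came from cannot be told. Tnf was higher by 3.06 (standard error 0.19), Ccl3 by 2.93, Il1a by 3.06 and Il1b by 3.08, close to Csf1r (3.05) and P2ry12 (2.998). The 47 genes that stood above Il10ra over homogenate were all higher here too, by 1.24 to 3.09 with a median of 2.87. Immediate early genes were higher by a median of 2.03, with Fos at 2.03, Jun at 2.25 and Hspa1b at 1.71. The 47 genes were chosen by their change over homogenate, and both comparisons share the microglia libraries, so these values are a description. Which share of the difference from homogenate was present in the tissue and which arose during handling cannot be told apart.

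**Figure D4:**
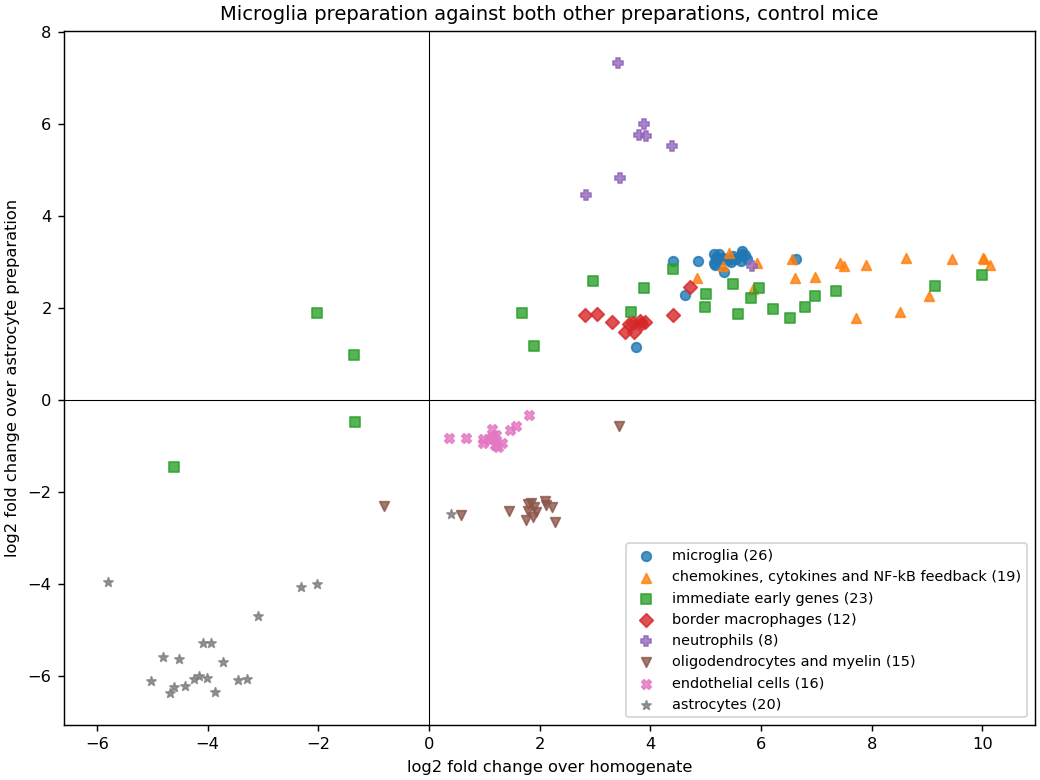
Log2 fold change of the control microglia preparation over homogenate (horizontal axis) and over the astrocyte preparation of the same mice (vertical axis) for the genes tested in both, by list, with the number of genes in brackets. Chemokines, cytokines and NF-kB feedback genes spread from 4.85 to 10.15 along the horizontal axis and from 1.78 to 3.19 along the vertical axis, neutrophil markers other than Csf3r lie above them, and myelin markers other than Mbp and endothelial markers lie right of 0 and below 0.

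Marker genes of other cells that carry CD11b were higher as well. All 12 tested markers of border macrophages, which live in meninges and around vessels, were higher by more than 2-fold (20% of all tested genes). Their median log2 fold change was 3.70. Mrc1, the mannose receptor, was at 110 to 303 CPM (median 184) in the preparations and at 3.34 to 20.7 (median 15.4) in the homogenates. The log2 fold change was 3.90 (standard error 0.27). Cd163, a hemoglobin scavenger receptor, was at 13.6 to 94.2 CPM (median 32.4) in the preparations, which thus differed widely, and at 0.912 to 6.79 (median 3.58) in the homogenates. Stab1, at 1516 ± 421 CPM, stood apart from the rest of this list and is also expressed by microglia. The summed level of the 14 border macrophage genes was 1484 to 3021 CPM in the preparations and 40.5 to 128 in the homogenates, and most of it was Stab1.

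Neutrophil markers were higher in 9 of 9 tests, each by more than 2-fold (20% of all tested genes were), at a median of 3.88. S100a8 and S100a9, the calgranulins, had 3.88 and 3.92. S100a9 was at 24.9 to 71.3 CPM (median 30.0) in the preparations and at 0.608 to 3.92 (median 2.84) in the homogenates. Compared with the astrocyte preparation the 8 genes that could be tested were higher by a median of 5.62, which is more than the 3.06 of the microglial markers. Over homogenate the order was the reverse, with 3.88 for the neutrophil list and 5.31 for the microglial markers. Csf3r, the G-CSF receptor, followed the microglial markers rather than the granule genes, with 5.84 over homogenate and 2.91 over the astrocyte preparation. Camp, Cxcr2, Elane and Mpo had too few counts to test. Summed over the list, the preparations held 565 to 1199 CPM and the homogenates 12.2 to 39.9, and most of the sum in the preparations was Csf3r.

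Markers of monocytes and lymphocytes had few counts. Of 11 monocyte markers 5 could be tested, and Ccr2, Chil3 and Cd177 were higher by 3.69, 3.23 and 3.30. Their mean levels in the preparations were 10.1, 6.27 and 6.96 CPM. Fn1, which vessels also make, was higher by 0.83 and Ace was lower (-0.98). Among markers of T and natural killer cells Cd4 alone could be tested (2.69, standard error 0.31), and macrophages can express it. The defining genes Cd3e, Cd3d and Cd3g had 3, 2 and 1 counts over the 8 preparations, and Gzma and Gzmb had 44 and 35. Cd79b was the only testable B cell marker, at 7.19 to 14.3 CPM (log2 fold change 5.01), while Cd79a had 19 counts and Pax5 had 2. Hemoglobin genes had 0 counts in the preparations and 0 or 1 in the homogenates, so they cannot show a difference, and Alas2, an erythroid enzyme, did not pass the test.

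Myelin genes were higher in the preparation than in homogenate, with an exception. Of 15 markers of oligodendrocytes and myelin 14 were higher and 1 was lower (39.1% and 43.4% of all tested genes were). Their median log2 fold change was 1.89. Cnp, an enzyme of myelin-forming cells, was at 276 to 1035 CPM (median 491) in the preparations and at 89.5 to 189 (median 123) in the homogenates. Every preparation was above every homogenate, and its log2 fold change was 2.10 (standard error 0.22, edgeR adjusted p = 2.09e-07). Mal and Ermn, which take part in maintaining myelin, had 2.11 and 2.28. Trf, the iron carrier transferrin, was higher by 3.43 and thus the most changed of the list. Mbp, the myelin basic protein, was the member that was lower, at 462 CPM against 853 (log2 fold change -0.82, standard error 0.19, edgeR adjusted p = 0.000937), and Mobp was higher by only 0.59. The mRNAs of Mbp and Mobp are known to be transported out of the cell body into the myelin sheath. All 15 were lower than in the astrocyte preparation, at a median of -2.32.

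Cells of vessels gave a smaller rise, which the preparation of mouse 05 did not show. Its summed endothelial and mural markers were at 80.7% and 95.3% of its homogenate. The other mice were at 149% or more and 207% or more. Of 16 endothelial markers 15 were higher (39.1% of all tested genes were) and Egfl7 was not called (0.35), at a median of 1.17. In the test against 2-fold 4 were higher, as were 20% of all tested genes. Pecam1, an adhesion molecule of endothelium, was at 53.0 to 167 CPM (median 93.0) in the preparations and at 19.04 to 44.2 (median 26.8) in the homogenates. The log2 fold change was 1.802 (standard error 0.16). Among mural cells the pericyte genes Kcnj8 and Abcc9, subunits of one potassium channel, were higher by 2.46 and 2.47, while Acta2, Tagln and Myh11, contractile genes of smooth muscle, were not called (-0.29, -0.45 and -0.12). Fibroblast genes went the other way, with 6 of 7 lower (43.4% of all tested genes were) and a median of -2.11. Col1a1, a chain of collagen I, was at 0.951 to 4.94 CPM (median 2.95) in the preparations and at 7.72 to 121 (median 59.7) in the homogenates. Its log2 fold change was -3.99 (standard error 0.33). Against the astrocyte preparation 13 of 16 endothelial and 11 of 11 mural genes were lower (37.5% of all genes tested there were).

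Astrocyte genes were depleted, with 19 of 20 lower by more than 2-fold (28.1% of all tested genes were) and a median of -4.06. Slc1a2, the glutamate transporter GLT-1, was at 70.5 to 358 CPM (median 151.5) in the preparations and at 3624 to 5491 (median 4057) in the homogenates. Every preparation was lower, and its log2 fold change was -4.81 (standard error 0.32, edgeR adjusted p = 8.75e-10). Gfap, the intermediate filament of astrocytes, had -5.80 and Aqp4, their water channel, -4.42. Slc1a3, the transporter GLAST, was depleted less (-2.02). Slco1c1, a thyroid hormone transporter that brain endothelium also carries, was not called (0.39, standard error 0.25).

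Precursors of oligodendrocytes were depleted too. Their list held 12 tested genes, of which 8 were lower by more than 2-fold (28.1% of all tested genes were) and Sox10 was higher. Pdgfra, the growth factor receptor of these cells, was at 3.87 to 29.7 CPM (median 12.9) in the preparations and at 50.8 to 72.7 (median 63.4) in the homogenates, a log2 fold change of -2.31 (standard error 0.22). Tnr, the matrix protein tenascin-R, had -3.74. Sox10, which mature oligodendrocytes share, had 1.13, and Olig1, Olig2 and Cspg4 (0.13, -0.01 and 0.26) were not called.

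Neuronal markers had the lowest medians of all cell types. Among the 13 excitatory, 13 inhibitory and 16 general neuronal markers every gene was lower by more than 2-fold (28.1% of all tested genes were) with no overlap between the groups (34% of all tested genes), at medians of -5.33, -5.74 and -5.37. Camk2a, the calcium- and calmodulin-dependent kinase of excitatory neurons, was at 36.3 to 171 CPM (median 72.9) in the preparations and at 3599 to 6018 (median 4609) in the homogenates. Its log2 fold change was -5.80 (standard error 0.29). Sst and Vip, peptides of interneuron classes, and Gad2, the GABA-synthesizing enzyme, had -6.13, -5.93 and -6.10. Cux2, a factor of upper cortical layers, was depleted least of these markers (-3.42). The long noncoding RNA Meg3, which neurons express, was at 27.1 to 118 CPM (median 63.0) against 2649 to 6063 (median 4477), a log2 fold change of -6.11.

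Receptors and channels of neurons fell in step. All 15 AMPA, NMDA and kainate receptor subunits, 12 GABA-A receptor subunits and 16 sodium and potassium channel genes were lower by more than 2-fold. Of all tested genes 28.1% were lower by that much. The medians were -4.70, -5.66 and -5.36 in this order. Grin2b, an NMDA receptor subunit, was at 0.968 to 7.25 CPM (median 2.69) in the preparations and at 205 to 340.5 (median 255) in the homogenates. The log2 fold change was -6.52 (standard error 0.23). Gabra2, a GABA-A receptor subunit, had -6.75. Kcna1, a potassium channel, fell least of the 16 channel genes (-1.89).

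Among genes at 10 CPM or more in the homogenate, the largest falls were in genes that the preparations all but lacked. The 12 genes were Wnt10a, 5330417C22Rik, Fibcd1, Car12, Fstl4, Mchr1, Slc1a6, Lgi2, Lrfn2, Kcns2, Htr1a and Gm5577, with 1 to 4 counts each over the 8 preparations. Kcns2, a modulatory potassium channel subunit, was at 0 in 5 preparations and at 26.4 to 43.7 CPM (median 32.3) in the homogenates, a log2 fold change of -7.11 (standard error 0.33). Mchr1, the receptor for melanin-concentrating hormone, had 2 counts in the preparations and 1606 in the homogenates, a ratio of 180 with a 95% exact interval from 49.7 to 1487. Htr1a, a serotonin receptor, had 2 counts against 1333, a ratio of 149 with an interval from 41.3 to 1234. Slc1a6, the glutamate transporter EAAT4, had 1 count against 957. At these depths the order of such genes is not resolved, because the intervals overlap widely.

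Genes of glycolysis differed by isoform. Over 25 tested genes 7 were higher and 16 lower (39.1% and 43.4% of all tested genes were), at a median of -1.36. Hexokinases split: Hk2 and Hk3 were higher by 5.70 and 5.37, and Hk1 was lower (-2.47). Hk2 was at 380 to 551 CPM (median 439) in the preparations and at 6.64 to 10.5 (median 8.77) in the homogenates. Glucose and fructose carriers split in the same manner, with Slc2a5 higher by 5.66, Slc2a1, which endothelium carries, by 1.31, and the neuronal carrier Slc2a3 lower (-3.46). The lactate exporter Slc16a3 and the regulator Pfkfb3 were higher by 4.43 and 3.70. Pfkm, Pfkp and Eno2 were lower, with -4.05, -4.57 and -5.36, whereas Pfkl and Ldha were not called (-0.08 and -0.17).

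Genes that mark lipid-associated (disease-associated) microglia were not uniformly enriched, with 11 of 19 higher, 7 lower and a median of 0.96. Of all tested genes 39.1% were higher and 43.4% lower. Cd9, Clec7a, Itgax and Cst7 were higher by 3.84, 5.15, 5.02 and 4.90. Clec7a, a receptor for fungal glucans, was at only 10.1 to 21.1 CPM (median 14.9) in the preparations. Gpnmb, Spp1, Lpl and Fabp5 were lower, with -2.46, -1.35, -1.45 and -1.97. Apoe, which astrocytes also make, was at 1003 CPM in the preparations and 1293 in the homogenates (log2 fold change -0.42, standard error 0.16, edgeR adjusted p = 0.0285).

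MHC class II genes, which present peptides to T cells, were higher in 11 of 11 tests (39.1% of all tested genes were). Their median was 3.86. Cd74, the invariant chain, was at 240 CPM in the preparations and 15.6 in the homogenates (4.15), and H2-Aa, H2-Ab1 and H2-Eb1 had 3.86, 3.85 and 3.57. Cd86, a costimulator, had 5.71 with a standard error of 0.14, against 0.33 for H2-Aa. Proliferation genes could be tested in 7 of 12 cases and 5 were higher (39.1% of all tested genes were). Among the 5 were Pcna (2.49), the polymerase clamp, and Mki67 (1.70), at 122 and 12.9 CPM.

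Mice differed in the markers of other cells found in their preparations. Summed neuronal markers were at 1.13% to 4.39% of the homogenate in the preparation of the same mouse, and summed astrocyte markers at 7.09% to 19.1%. Mice 22 and 35 were highest in both, with 4.00% and 4.39% for neurons and 19.1% and 17.3% for astrocytes. Their preparations also held the most by CPM, at 552 and 575 for neurons against 150 to 349 in the other 6 mice, and at 1590 and 1503 for astrocytes against 652 to 985. Myelin markers were at 4003 to 10500 CPM in the preparations and 1074 to 3900 in the homogenates. Mouse 22 had the highest myelin sum in its preparation. Mouse 35 had 5586 CPM there, within the range of the others, and its 520% of the homogenate went with the lowest homogenate sum. Mouse 22 was lowest for the cytokine and NF-kB list (6436 CPM, against 9353 to 12006 in the other 7 preparations) and highest for the microglial markers (61565 CPM, against 45314 to 50980).

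Some other differences between mice lay in the homogenate. MHC class II genes were at 3187% and 3306% of the homogenate in mice 35 and 37 and at 1093% to 1419% in the other 6. The preparations of these 2 mice held 792 and 765 CPM, inside the range of the others (588 to 1114), while their homogenates held 24.9 and 23.1 CPM against 41.5 to 78.7. Neutrophil and border macrophage lists behaved alike, with the lowest sums in the homogenates of mice 35 and 37 (12.2 and 14.3 CPM, and 40.5 and 58.3 CPM). Endothelial markers differed more between the preparations, from 567 CPM in mouse 05 to 3128 in mouse 36, than between the homogenates (492 to 913).

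**Figure D5:**
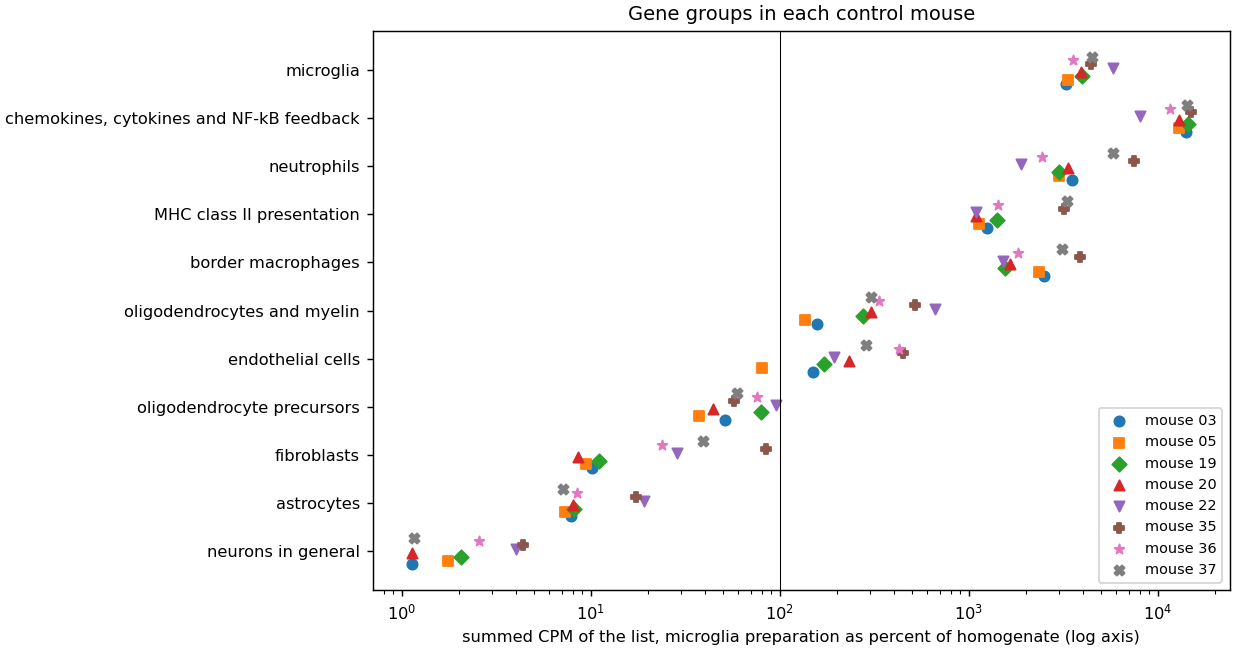
Summed CPM of 11 gene lists in the microglia preparation as a percentage of the homogenate of the same control mouse, on a log axis, with one symbol per mouse and a vertical line at 100%. Microglial markers lie at 3255% or more in every mouse, neuronal markers below 5%, and mice 22 and 35 are the 2 highest for neuronal and astrocyte markers, while high percentages of mice 35 and 37 for MHC class II, neutrophil and border macrophage lists and of mouse 35 for myelin go with low homogenate sums.

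The comparison was repeated in the 9 ethanol-exposed mice, which share no library with the controls and differ in treatment. There 10758 of 13309 genes (80.8%) differed, 5060 (38%) higher and 5698 (42.8%) lower, and 6003 (45.1%) did so by more than 2-fold, 2509 (18.9%) higher and 3494 (26.3%) lower. Of the 2678 genes higher by more than 2-fold in control mice, 2321 (86.7%, or 92.5% of the 2509 called there) were also higher by more than 2-fold, and of the 3760 lower ones 3341 (88.9%, or 95.6% of 3494). By this edgeR test 0 genes were called in opposite directions, and by the test without a minimum fold 2 genes higher in control mice and 1 lower were. Over 13152 genes tested in both, log2 fold changes differed by a median of 0.19. Csf1r had 5.15 and P2ry12 5.21 in the ethanol-exposed mice, Tnf had 9.82 and Atf3 9.32.

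Long genes were depleted more often. Of 2082 tested genes with a genomic span of 100000 bases or more, 47.2% were lower by more than 2-fold and 15.2% higher, against 26.2% and 20.4% of the 3168 genes under 10000 bases. The median span was 32234 bases for the lower genes, 23827 for the higher genes and 25169 for all tested genes with a RefSeq match. Genes of neurons are known to be long, and whether length itself played a part was not tested.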

How the data were processed

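RNA-seq libraries of prefrontal cortex were poly(A) selected and amplified for 15 PCR cycles. The deposited values are raw read counts per gene symbol, which the authors made with bcl2fastq 2.17, cutadapt 1.8, STAR 2.5.0a (mm10), Picard 1.141 for removal of duplicates and HTSeq 0.6.1p1. Removing duplicates can cap abundant genes, reads mapping to several places were not counted, and the strand setting and annotation release are not given in the sources used here, so near-identical copies and overlapping genes are uncertain.

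From the 16 libraries, 5 counter rows that name no gene were left out. Genes were filtered with filterByExpr, scaled by TMM and tested in edgeR 4.0.16 (R 4.3.3) with the quasi-likelihood F test and the mouse as a block. A second test used glmTreat against 2-fold. Adjusted p-values are Benjamini-Hochberg over all tested genes with a threshold of 0.05, and a standard error is the log2 fold change divided by the square root of F. The pairing comes from the mouse number in the titles, since the homogenate is an aliquot of the same suspension. As a check, the correlations of same-numbered deviations ran from -0.091 to 0.076, and 0 of 8 preparations correlated best with its own mouse. The check thus did not bear out the pairing, which rests on the titles. The preparations held 1025527 to 6026453 counts and the homogenates 5247210 to 15594154. Intervals of count ratios are exact (95%) and cover counting error only. The members and the 37 gene lists were chosen with earlier results of these data known.

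Genes were named by a rule: Csf1r and P2ry12, the 12 largest rises and the 12 largest falls (past the test against 2-fold, the same way in all 8 mice, a mean of 10 CPM or more in the higher group), from every list at most 4 genes, taken by lowest adjusted p, members that moved by more than 2-fold against most of their list, the most abundant member of each cell type list, and the 5 most abundant genes of each group. Other genes were chosen after their values were seen, to show the range of a list. RefSeq symbols matched 13363 of 13393 tested genes, 553 of them by synonym. The code was run on simulated counts in which few genes changed, up and down alike and without differences between mice. There 44% of changes of 0.5 log2 units and 100% of changes of 2 were called, and 6.36% of the calls were false. Most genes differ in these data, so the simulation cannot show how the tests perform here. Alternatives are scaling, filter, block, tool, depth and leaving out mice. Some genes measured in the files are not reported here.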

Additional observations from a re-analysis of the deposited data

Results flagged for a closer look

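Of 411 groups of 8 libraries tested, 34 (8.27%) held a library whose gap to the nearest other exceeded Dixon's 95% limit. For independent groups of normal values chance gives about 1 in 20. Groups with only 1 library above 0 exceed the limit by construction, and groups from the same libraries are not independent. The share flagged therefore cannot be set against that rate. By mouse there were 9 flagged values in mouse 22, 8 in mouse 19, 5 in mouse 35, 4 each in mice 05 and 37, 3 in mouse 03, 1 in mouse 36 and 0 in mouse 20.

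In the preparation of mouse 22, Il1a (536 CPM), Ier3 (148) and Pcna (59.03) were low, and Trf (2492), Itgb5 (2731), Kcnd2 (4.00), Wnt10a (1.00) and Car12 (1.00) were high, the last pair on 1 count each over all 8 preparations. The summed neuronal sodium and potassium channel genes of this mouse were at 10.1% of the homogenate, the next mouse being at 6.90%. In mouse 19, the preparation was high for Aif1 (207 CPM), S100a9 (71.3), C1qb (3209.9), Ccl6 (58.9) and Slc1a6 (0.951, its only count) and low for Tgfbr2 (479), its homogenate was high for Slc7a7 (4.35), and the summed B cell genes were at 6009% of the homogenate, the next mouse being at 2121%. Its B cell sum was 20.9 CPM in the preparation and the lowest of all, 0.348, in the homogenate.

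In mouse 35, the preparation was high for Npas4 (3.87 CPM), Htr1a (0.967, 2 counts) and Gm5577 (0.483, 1 count) and the homogenate was low for Zfp36 (3.34). The summed fibroblast genes of this mouse were at 84.2% of the homogenate, with the next at 39.3%, and here the homogenate sum was the lowest (61.5 CPM) while the preparation (51.7 CPM) lay within the range of the others. The homogenate of mouse 37 was high for Slc4a4 (352 CPM), Adora1 (264), Gpnmb (7.30) and Kcnj10 (399). That of mouse 05 was high for Runx1 (3.82), Mki67 (13.1) and Top2a (8.30), and that of mouse 03 for Alas2 (12.6) and Tlr9 (4.91). Fibcd1 in the preparation of mouse 05 (0.719), Lgi2 in that of mouse 03 (1.06) and Mchr1 in that of mouse 36 (0.458) were high and each rest on 1 or 2 counts.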

How the results depend on the processing

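Across the genes named by rule, 3285 alternative values kept their direction and side of the threshold, 8 changed sign and 5 lost their call. Thinned to the smallest library, 6062 genes of 10180 tested were called and 3871 by more than 2-fold, since fewer reads remain. Leaving out 1 mouse gave 10682 to 11184 genes, 6261 to 6556 by more than 2-fold, 10447 to 10775 in ethanol-exposed mice and 8177 to 8767 against the astrocyte preparation. Without the replicate block the counts were 11298, 6527, 10893 and 8972, and among the genes named by rule none changed its call without the block. Of the list members, Slco1c1 was then called higher, 1 fewer myelin and endothelial gene was called higher (13 and 14) and 1 fewer ligand lower (3). DESeq2 called 11050 genes. Library size alone as scaling gave 10913 and shifted the median log2 fold change of all genes by -0.25, relative log expression by -0.12. Without a filter 13005 of 19506 genes were called, and among genes with no 0 count 9585 of 11774 (shift -0.19). Without mice 03, 05 and 19 there were 10928 and 6519 by more than 2-fold, and without Rn45s and Lars2 11097 and 6483, both chosen after the data were seen.

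The sign of Olig1 (0.13, not called) turned with library size alone (-0.13), among genes with no 0 count (-0.066) and in DESeq2 (-0.0023), and ran from -0.018 to 0.21 when 1 mouse was left out, turning without mouse 19 and without mouse 22. That of Alas2 (-0.14, not called) turned without mice 03, 05 and 19 (0.27) and ran from -0.33 to 0.17 when 1 mouse was left out, turning without mouse 03 and without mouse 05. The cause was not tested. Fn1 lost its call with library size alone (adjusted p = 0.117 in edgeR), among genes with no 0 count (0.0519) and when thinned (0.0559), Ace (0.0587) and Mcm6 (0.408) when thinned. When thinned, the genes called higher were 4 of 4 border macrophage genes that could still be tested, 0 of 2 monocyte genes, 7 of 7 MHC class II genes and 9 of 15 endothelial genes. In DESeq2 1 fewer gene was called higher among the integrins, endothelial, mural, myelin, channel and lipid-associated lists (10, 14, 7, 13, 14 and 10). Depth limits genes under about 1 CPM in the preparations.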
